A study of Mus musculus with 14 samples.

Results

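The 10 genes described here encode parts of the cardiac sarcomere and were taken by symbol from a list: Myh6, Myh7, Tnnt2, Tnni1, Tnni3, Myl4, Myl7, Actc1, Actn2 and Ttn. The list was chosen with earlier results of these data known. All 10 were found, of 50686 genes in the deposited count table and 16181 in the deposited table of normalized values. RNA was sequenced from 2 lines of mouse embryonic stem cells (ESCs), both derived, per the study, from ESCs carrying an Osr1-GFP reporter. The shLacZ line stably expresses a control short hairpin RNA (shRNA) against LacZ, and the shDIS3L2 line an shRNA against DIS3L2, an exonuclease that degrades uridylated RNA. Each line was sampled as undifferentiated ESCs grown with LIF and the inhibitor pair 2i (d0). It was sampled again as embryoid bodies (EBs), aggregates that form in hanging drops with serum after LIF and 2i are taken away, every 2 days from d2 to d12. This gave 14 libraries, 1 per line and day, so no difference between the lines on a single day has a replicate or a p-value.

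The sarcomere is the contractile unit of striated muscle. Myosin heavy chains with their light chains form the thick filament and pull on actin filaments, troponin makes that pull depend on calcium, alpha-actinin anchors the actin filaments at the Z disc, and titin spans from the Z disc to the middle of the unit. The cardiac forms switch during heart development, as when slow skeletal troponin I (Tnni1) gives way to cardiac troponin I (Tnni3), and several of these genes are also used in embryonic skeletal muscle or, at low levels, elsewhere. EBs in serum are known to form beating patches of cardiomyocytes.

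Levels are given as counts per 1000000 reads on genes (CPM), recomputed from the deposited counts with the total of each library. The libraries held between 7178712 reads (shLacZ d4) and 39888099 reads (shLacZ d0) on genes, and a count of 3, taken as the floor, was 0.418 CPM in the former and 0.0752 CPM in the latter. Ratios between libraries carry the 95% Clopper-Pearson interval of the reads, so they show counting error alone and say nothing of the spread between cultures of a line. A gene was counted as different when its ratio was at least 3 either way and its level at least 1 CPM in 1 of the 2 libraries. The targeted gene, Dis3l2, was lower in shDIS3L2 at d0, at 3.93 CPM, against 28.7 CPM in shLacZ (ratio 0.137, interval 0.111 to 0.167). Its ratio rose to 0.281 at d2 (0.222 to 0.352), 0.32 at d4 (0.254 to 0.404) and 0.552 at d6 (0.45 to 0.675). At d8 the ratio was 0.971 (0.837 to 1.13) and at d10 0.95 (0.788 to 1.15), so the targeted gene does not check the labels on these 2 days, and the late comparisons below are between libraries labelled shDIS3L2 and shLacZ. At d12 the ratio was 0.754 (0.609 to 0.934).

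Summed over the 10 genes, the level in shLacZ was 70.8, 83.2, 57.0, 26.3, 34.6, 43.9 and 53.7 CPM from d0 to d12 in order of day. In shDIS3L2 the sum was 82.6, 60.2, 41.8, 42.5, 154.8, 234.4 and 144.8 CPM. The genes were thus counted at low levels in every library, and the libraries labelled shDIS3L2 of d8, d10 and d12 stood above the other 11. In bulk RNA, fewer cells of a type and less RNA per cell cannot be told apart.

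**Figure D1:**
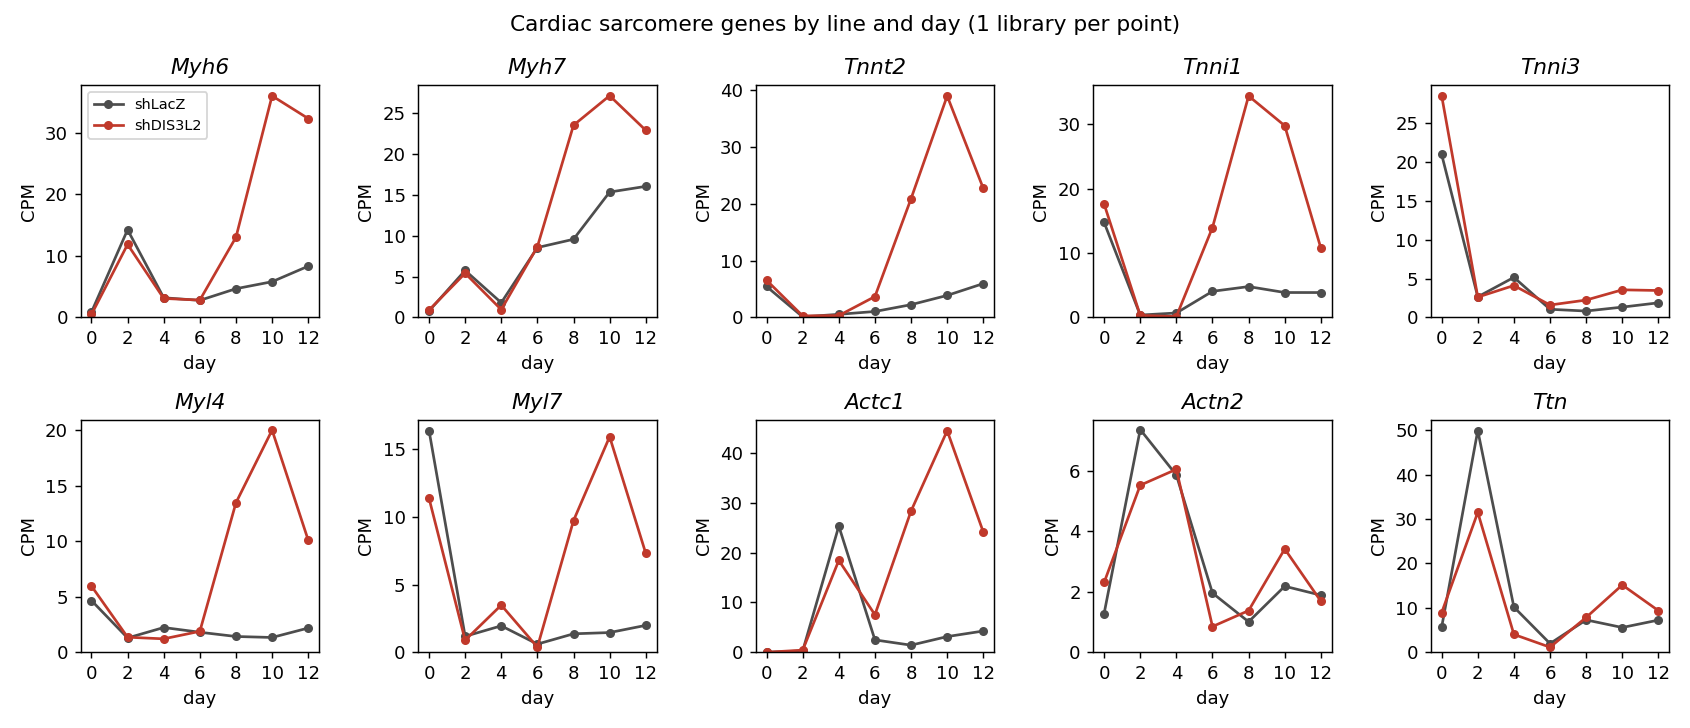
Level of each gene in CPM (vertical axis, each panel with its own scale from 0) by day of differentiation (horizontal axis) in the shLacZ (grey) and shDIS3L2 (red) lines, with 1 library per point and no error bars. The troponin and light chain genes start higher at d0 than at d2, Ttn and Myh6 have an early maximum at d2 in shLacZ, Actc1 has one at d4, and the red line leaves the grey one at d8 to d12 in most panels.

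Among the thin filament genes, Actc1 (ENSMUSG00000068614, chromosome 2, 114047282 to 114053548, minus strand, GRCm38) encodes cardiac alpha-actin. In shLacZ it was counted at 0, 0.265, 25.4, 2.48, 1.42, 3.15 and 4.26 CPM from d0 to d12, and in shDIS3L2 at 0, 0.42, 18.5, 7.54, 28.4, 44.5 and 24.2 CPM. No read fell on Actc1 in either library of d0, and both lines had a peak at d4. The lines then parted: from d4 to d8 the level in shLacZ went to 0.056 of its value (0.035 to 0.086), while in shDIS3L2 it was 1.54 times its value (1.35 to 1.76). Between the lines the ratio was 3.04 at d6 (2.0 to 4.71), 19.99 at d8 (13.3 to 31.5), 14.2 at d10 (9.59 to 21.8) and 5.67 at d12 (4.09 to 8.02). The d8 ratio was the largest of any of the 10 genes on any day. Actc1 is nearly identical in sequence to the other muscle actins, and Acta2, the smooth muscle actin, stood at 1838 CPM in shDIS3L2 d8 against 136.3 CPM in shLacZ d8, so how reads were split between them is uncertain.

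Tnnt2 (ENSMUSG00000026414, chromosome 1, 135836354 to 135852260, plus strand) encodes cardiac troponin T, which ties troponin to the thin filament. It was counted at 5.44, 0.114, 0.557, 1.05, 2.25, 3.87 and 5.95 CPM in shLacZ and at 6.53, 0.28, 0.338, 3.68, 20.9, 38.9 and 22.7 CPM in shDIS3L2. The d0 level of shLacZ was thus close to its level at d12, with near-absence at d2 and d4 between them. The lines stood at a ratio of 3.49 at d6 (1.86 to 6.97), 9.28 at d8 (6.65 to 13.3), 10.0 at d10 (7.05 to 14.8) and 3.81 at d12 (2.86 to 5.14).

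Tnni1 (ENSMUSG00000026418, chromosome 1, 135779434 to 135810989, plus strand) encodes the slow skeletal form of the inhibitory subunit troponin I, which the embryonic heart also uses. Its levels were 14.7, 0.379, 0.697, 4.06, 4.79, 3.87 and 3.87 CPM in shLacZ and 17.6, 0.327, 0.145, 13.95, 34.4, 29.7 and 10.8 CPM in shDIS3L2. It came back at d6 in both lines after 2 days near the floor, and it was the earliest of the 10 to peak in shDIS3L2 among those with a late peak, at d8. The ratio of the lines was 3.44 at d6 (2.5 to 4.79), 7.17 at d8 (5.69 to 9.14), 7.68 at d10 (5.38 to 11.3) and 2.78 at d12 (1.92 to 4.11).

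Tnni3 (ENSMUSG00000035458, chromosome 7, 4518305 to 4524229, minus strand) encodes the adult cardiac form of troponin I. It was counted at 20.9, 2.65, 5.15, 1.05, 0.828, 1.33 and 1.88 CPM in shLacZ and at 28.5, 2.62, 4.11, 1.6, 2.24, 3.55 and 3.47 CPM in shDIS3L2. Its highest level in each line was at d0, in undifferentiated cells, and no later day came near it. Dnaaf3 overlaps Tnni3 on the same strand, so part of the reads cannot be assigned with certainty. In the d8 libraries the lines had a ratio of 2.7 (1.45 to 5.34), in those of d10 2.67 (1.41 to 5.57) and in those of d12 1.84 (1.03 to 3.39), below 3 each time.

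Of the light chains, Myl7 (ENSMUSG00000020469, chromosome 11, 5896637 to 5898782, minus strand) encodes the atrial regulatory chain. Its levels were 16.4, 1.17, 1.95, 0.601, 1.36, 1.45 and 1.98 CPM in shLacZ and 11.4, 0.888, 3.48, 0.377, 9.72, 15.9 and 7.3 CPM in shDIS3L2. In shLacZ no library after d0 reached 2 CPM. The ratio of the lines was 0.694 at d0 (0.604 to 0.797), 7.14 at d8 (4.62 to 11.5), 10.9 at d10 (6.19 to 21.4) and 3.68 at d12 (2.23 to 6.36). At d6 it rested on 4 and 8 reads.

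Myl4 (ENSMUSG00000061086, chromosome 11, 104550663 to 104595753, plus strand) encodes the atrial and embryonic essential light chain. It was counted at 4.66, 1.29, 2.23, 1.8, 1.42, 1.33 and 2.18 CPM in shLacZ and at 5.97, 1.36, 1.21, 1.88, 13.5, 20.03 and 10.1 CPM in shDIS3L2. The lines were alike at d6, with a ratio of 1.04 (0.547 to 1.97), and far apart on the next day sampled, with a ratio of 9.5 at d8 (6.25 to 15.1). The ratio was 15.1 at d10 (8.32 to 30.4) on 423 and 11 reads, and 4.63 at d12 (2.91 to 7.7).

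Myh6 (ENSMUSG00000040752, chromosome 14, 54941921 to 54966927, minus strand) encodes the fast alpha myosin heavy chain of atria and adult rodent ventricles. Its levels were 0.878, 14.2, 3.2, 2.78, 4.67, 5.81 and 8.33 CPM in shLacZ and 0.491, 11.9, 3.09, 2.83, 13.03, 36.0 and 32.3 CPM in shDIS3L2. Both lines passed through a maximum at d2, which was the highest value of the whole course in shLacZ. The ratio of the lines was 0.833 at d2 (0.707 to 0.979), 1.02 at d6 (0.607 to 1.69), 2.79 at d8 (2.16 to 3.63), 6.2 at d10 (4.63 to 8.48) and 3.88 at d12 (3.05 to 4.98).

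Myh7 (ENSMUSG00000053093, chromosome 14, 54970684 to 54994626, minus strand), its neighbour, encodes the slow beta heavy chain of the embryonic ventricle and of slow skeletal fibres. It was counted at 0.802, 5.76, 1.81, 8.57, 9.59, 15.4 and 16.1 CPM in shLacZ and at 0.906, 5.42, 0.966, 8.67, 23.6, 27.2 and 22.9 CPM in shDIS3L2. In shLacZ each library from d6 on held more of it than the one before, and its ratio of the lines was largest at d8, at 2.46 (2.05 to 2.96), then 1.77 at d10 (1.46 to 2.16) and 1.43 at d12 (1.17 to 1.75). The antisense RNA Mhrt and other genes overlap Myh7 on the opposite strand, and Myh6 and Myh7 are near-identical over long stretches, so the split of reads is uncertain.

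Actn2 (ENSMUSG00000052374, chromosome 13, 12269426 to 12340760, minus strand) encodes the muscle alpha-actinin of the Z disc. Its levels were 1.28, 7.35, 5.85, 1.95, 1.01, 2.18 and 1.88 CPM in shLacZ and 2.3, 5.51, 6.04, 0.848, 1.37, 3.41 and 1.69 CPM in shDIS3L2. The highest levels of each line were at d2 and d4, and the interval of each late ratio held 1, with 1.37 at d8 (0.718 to 2.67), 1.56 at d10 (0.924 to 2.79) and 0.895 at d12 (0.443 to 1.8).

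Ttn (ENSMUSG00000051747, chromosome 2, 76703980 to 76982547, minus strand) encodes titin, the elastic scaffold of the sarcomere. It was counted at 5.64, 49.9, 10.2, 1.95, 7.28, 5.57 and 7.24 CPM in shLacZ and at 8.91, 31.5, 4.01, 1.13, 7.84, 15.2 and 9.36 CPM in shDIS3L2. Its highest level in each line was at d2, when shDIS3L2 was at 0.631 of shLacZ (0.574 to 0.693). At d4 the ratio was 0.394 (0.284 to 0.548), the lowest of any of the 10 genes with at least 1 CPM in a library of the day. At d10 it was 2.72 (1.99 to 3.79), while at d8 (1.08, 0.844 to 1.38) and d12 (1.29, 0.947 to 1.77) the interval held 1.

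Levels of different genes can be set side by side only per length, since the annotated exons of Ttn cover 116825 bases and those of Myl7 590. That length covers all annotated exons of a gene rather than those of the transcripts present, so orders and shares per length depend on it. Per kb of exon, the order in shLacZ d0 was Myl7 (27.7 CPM per kb), Tnni3 (10.1), Tnni1 (4.09), Myl4 (1.01), Tnnt2 (0.702), Actn2 (0.346), Myh6 (0.138), Myh7 (0.0934), Ttn (0.0483) and Actc1 (0). Per kb of annotated exon, the d0 profile was therefore one of light chains and troponins, with little heavy chain, titin or actin. In shDIS3L2 d10 the order began with Actc1 (27.5 CPM per kb) and Myl7 (26.97), followed by Tnni1 (8.26), Myh6 (5.67), Tnnt2 (5.02), Myl4 (4.32), Myh7 (3.17), Tnni3 (1.72), Actn2 (0.923) and Ttn (0.13). In shLacZ d10 Myl7 (2.46), Actc1 (1.95) and Myh7 (1.79) came first. With 1 library per line and day, neighbours in these orders have no replicate spread to be judged against.

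**Figure D2:**
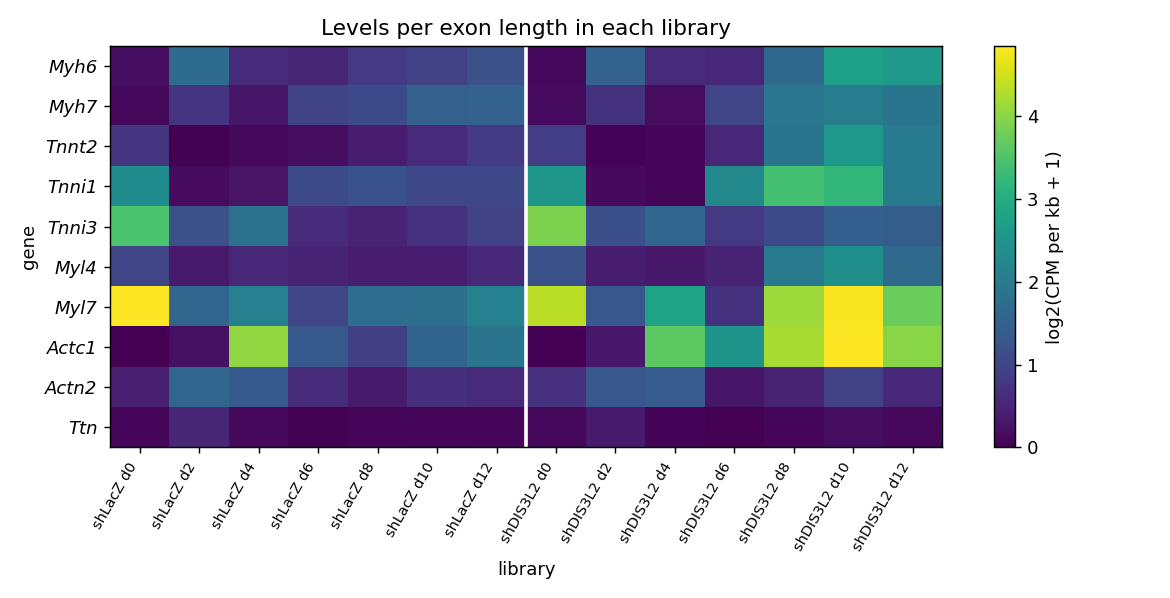
Level of each gene (rows) in each of the 14 libraries (columns, shLacZ left and shDIS3L2 right of the white line) as log2(CPM per kb of exon + 1), in color. Myl7 and Tnni3 are bright at d0 in both lines, Actc1 at d4 in both lines, and Actc1 and Myl7 again at d8 to d12 in shDIS3L2 alone.

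What happened to the 10 genes when cells left LIF and 2i was asked by comparing d2 with d0 within each line. The troponin genes Tnnt2, Tnni1 and Tnni3 and the light chain genes Myl4 and Myl7 were at least 3-fold lower at d2 in both lines. These were 5 of the 9 genes that could be compared, where 10.6% of all genes compared were lower in shLacZ and 10.2% in shDIS3L2. Tnni1 went to 0.0257 of its d0 level in shLacZ (0.0123 to 0.0476) and to 0.0186 in shDIS3L2 (0.00743 to 0.0386). Tnnt2 went to 0.0209 in shLacZ, on 3 reads at d2, and to 0.0429 in shDIS3L2.

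The heavy chain genes and Ttn were at least 3-fold higher at d2 in both lines. Myh6 was 16.2 times its d0 level in shLacZ (11.5 to 23.7) and 24.2 times in shDIS3L2 (13.9 to 46.0). Actn2 was 5.75 times its d0 level in shLacZ (4.2 to 7.99) and 2.39 times in shDIS3L2 (1.74 to 3.32). In all, 4 of the 9 compared were higher in shLacZ and 3 of 9 in shDIS3L2, shares to be read against 26.6% and 33.5% of all genes. The median log2 ratio of all genes from d0 to d2 was itself 0.5 in shLacZ and 0.79 in shDIS3L2. With TMM factors, which bring those medians to -0.06 and 0.00, Ttn in shDIS3L2 was 2.11 times its d0 level and Actn2 1.43 times, and the 5 genes lower at d2 were lower still. The long gene Neb (nebulin, 0.652 and 35.2 CPM at d0 and d2 in shLacZ), chosen after its values were seen, had the same early maximum.

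From d4 to d8 the lines were compared in the same way. In shLacZ, Myh7, Tnnt2 and Tnni1 were at least 3-fold higher at d8 than at d4 (3 of 10, background 8.64%), and Tnni3, Actc1 and Actn2 at least 3-fold lower (3 of 10, background 5.81%). In shDIS3L2, Myh6, Myh7, Tnnt2, Tnni1 and Myl4 were higher (5 of 10, background 13.9%), and only Actn2 was lower (1 of 10, background 7.03%). Tnnt2 was 61.7 times its d4 level in shDIS3L2 (29.7 to 154.4) and 4.04 times in shLacZ (1.45 to 15.6).

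From d8 to d12 few of the genes moved by 3-fold. In shLacZ Actc1 alone was higher, at 3.0 times its d8 level (1.78 to 5.17), where 2.74% of all genes were higher, and none was lower (background 0.738%). With TMM factors or DESeq2 size factors the Actc1 ratio was under 3. In shDIS3L2 Tnni1 alone was lower, at 0.314 of its d8 level (0.255 to 0.383), where 1.49% of all genes were lower, and none was higher (background 6.68%). In shDIS3L2, 9 of the 10 genes had a higher level at d10 than at d8 and at d12, Tnni1 being the exception.

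Whether the lines differed was then asked for each day. At d0, d2 and d4, 7, 7 and 8 of the 10 genes could be compared, and none of these was at least 3-fold higher or lower. The background was 0.6% higher and 2.36% lower at d0, 0.114% and 0.144% at d2, and 0.361% and 1.69% at d4. At d0 the median log2 ratio was 0.36 over the 7 of the 10 genes that could be compared and -0.32 over all genes, and it was -0.26 against -0.07 at d2 and -0.39 against -0.01 at d4. The direction of small ratios at d0 depends on the scaling, as the median of all genes was -0.04 with TMM factors and 0.08 with DESeq2 size factors. Myl7 and Myh6 were below 1 and the other 7 counted genes above 1 under each of these scalings.

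At d6 Tnnt2, Tnni1 and Actc1 were at least 3-fold higher in shDIS3L2 (3 of 9 compared, background 2.73%) and none was lower (background 4.27%). With TMM factors the count at d6 was 2, as Actc1 came just under the 3-fold criterion. At d8 the list grew to Tnnt2, Tnni1, Myl4, Myl7 and Actc1 (5 of 10, background 5.5%), at d10 the same 5 and Myh6 (6 of 10, background 8.62%), and at d12 Myh6, Tnnt2, Myl4, Myl7 and Actc1 (5 of 10, background 8.17%). None was lower on these days, where the background was 3.77%, 3.17% and 1.42%. On d8, d10 and d12 the 10 genes had median log2 ratios of 2.16, 2.79 and 1.68, and all genes had 0.03, 0.01 and 0.05. Thus the troponin T, light chain and actin genes were higher by more than 3-fold on each of the 3 last days, the troponin I and heavy chain genes on some or none of them, and Tnni3, Myh7, Actn2 and Ttn on none. On at least 2 of the days d8, d10 and d12, 6 of the 10 genes were higher (background 6.91% of 13742 genes) and none lower (background 1.9%). As the genes were chosen with earlier results of these data known, such shares describe them and are no test of the set.

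**Figure D3:**
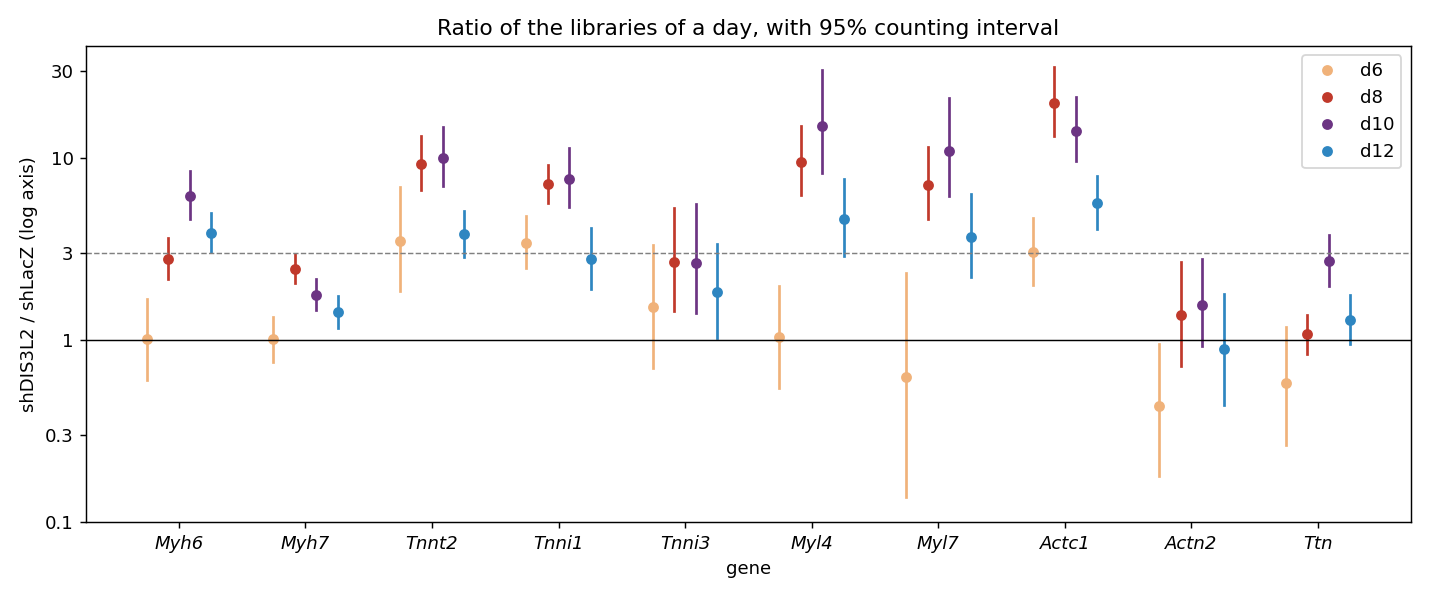
Ratio of the shDIS3L2 to the shLacZ library (vertical log axis) for each gene (horizontal axis) at d6, d8, d10 and d12 (colors), with bars for the 95% Clopper-Pearson interval of the reads, which holds no replicate error. The solid line is a ratio of 1 and the dashed line 3. Tnnt2, Myl4, Myl7 and Actc1 lie above the dashed line at d8, d10 and d12, and Actn2 lies near the solid line from d8 on.

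An edgeR quasi-likelihood fit with day as a block was run on the 8 libraries of d6 to d12. The 4 days of the single series stand in for replicates in it, and the lines are not tested over other cultures. At a Benjamini-Hochberg adjusted p under 0.05, 8 of the 10 genes were higher in shDIS3L2 and none lower, where 19.6% of 17164 genes were higher and 18.7% lower. By edgeR the log2 difference was 3.07 for Actc1 (SE 0.42, adjusted p = 0.00224), 2.64 for Tnnt2 (SE 0.30, adjusted p = 0.0012) and 2.29 for Tnni1 (SE 0.28, adjusted p = 0.00146). Each SE given with edgeR was derived from the log2 difference and the F statistic, so it restates the test. It was 2.45 for Myl4 (SE 0.55, adjusted p = 0.013), 2.34 for Myl7 (SE 0.49, adjusted p = 0.0106) and 1.65 for Myh6 (SE 0.36, adjusted p = 0.0117), and smaller for Tnni3, at 1.08 (SE 0.26, adjusted p = 0.017), and Myh7, at 0.68 (SE 0.20, adjusted p = 0.0361). The ratio was above 1 on 4 of 4 days for 7 of these 8 genes and on 3 of 4 for Myl7. Among these 8, the counting interval at d6 excluded 1 only for Tnnt2, Tnni1 and Actc1. It held 1 for Myh6 (ratio 1.02, 0.607 to 1.69), Myl4 (1.04, 0.547 to 1.97), Tnni3 (1.52, 0.706 to 3.34), Myh7 (1.01, 0.76 to 1.34) and Myl7. With TMM factors the ratio of Myh7 at d6 was 0.998.

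Ttn (0.40, SE 0.32, adjusted p = 0.36) and Actn2 (0.00, SE 0.34, adjusted p = 0.994) did not pass. Dis3l2 does not check the labels at d8 and d10, and the edgeR calls changed without those days. Without d8, and likewise without d10, Tnnt2, Tnni1 and Actc1 passed and the other 5 did not, with 6 libraries in each fit in place of 8. Their log2 differences without d8 were 1.70 for Myh6, 2.12 for Myl4, 2.07 for Myl7, 0.96 for Tnni3 and 0.46 for Myh7, and without d10 they were 1.27, 1.98, 1.86, 0.97 and 0.62. Without both days edgeR called 0 of the 10 genes, and 0 of all 15950, with adjusted p = 0.124 for Tnnt2, 0.132 for Actc1 and 0.133 for Tnni1 and log2 differences of 1.86, 2.06 and 1.61 from 4 libraries. Of these 10 genes 3 had an unadjusted edgeR p under 0.05 there, as had 3149 of all genes. DESeq2 on the same libraries called 2 of the 10, Actc1 (adjusted p = 0.00816) and Tnnt2 (0.0386), and not Tnni1 (0.0818). Over 11 alternatives the adjusted p ran from 2.95e-13 to 0.124 for Tnnt2, from 4.46e-12 to 0.132 for Actc1 and from 6.11e-12 to 0.133 for Tnni1. On d12 the Dis3l2 ratio was 0.754 (0.609 to 0.934, counting error only). On that day 5 of the 10 had a ratio of 3 or more (background 8.17%), on 1 library per line.

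The paired forms give a share within a library that does not depend on the library total, though it does depend on the exon lengths used. Of the per-length level of both cardiac heavy chains, Myh6 made up 77.0% in shLacZ (95% exact interval 73.4 to 80.3%) and 74.8% in shDIS3L2 (70.3 to 78.8%) at d2, then 30.5% (22.7 to 39.1%) and 30.6% (22.0 to 40.2%) at d6. The lines thus moved together from an alpha to a beta majority. At d8 the shares were 39.7% (33.2 to 46.5%) and 42.8% (39.0 to 46.6%), with overlapping intervals. At d10 they were 33.8% (26.4 to 41.8%) and 64.2% (61.6 to 66.7%), and at d12 41.2% (34.7 to 47.9%) and 65.6% (61.7 to 69.3%). In shDIS3L2 the alpha chain was the majority form again on these last days, while in shLacZ it was not.

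Of troponin I, the Tnni3 form made up 71.2% in shLacZ (69.0 to 73.4%) and 73.8% in shDIS3L2 (71.5 to 76.1%) at d0, and 92.4% (86.2 to 96.4%) and 93.3% (86.4 to 97.3%) at d2. At d6 the share was 31.1% (18.8 to 45.2%) and 16.7% (10.2 to 24.9%), at d8 23.2% (13.6 to 34.9%) and 10.2% (7.57 to 13.4%), at d10 37.5% (21.4 to 55.0%) and 17.2% (13.9 to 20.96%), and at d12 46.0% (31.7 to 60.1%) and 36.0% (27.4 to 45.0%). The slow skeletal form had the larger share in both lines from d6 on, though in shLacZ the intervals of d10 and d12 also held an equal share. Its share was higher in shDIS3L2 on d8 and d10 by intervals that did not overlap. Myl7 made up between 61.1% and 96.5% of the light chain pair Myl7 and Myl4 per length in all 14 libraries. By reads Myl7 exceeded Myl4 only in both d0 libraries, shDIS3L2 d4 and shLacZ d10. Elsewhere, as in shDIS3L2 d10 with 336 reads on Myl7 and 423 on Myl4, its majority rests on the lengths of 590 and 4637 bases.

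**Figure D4:**
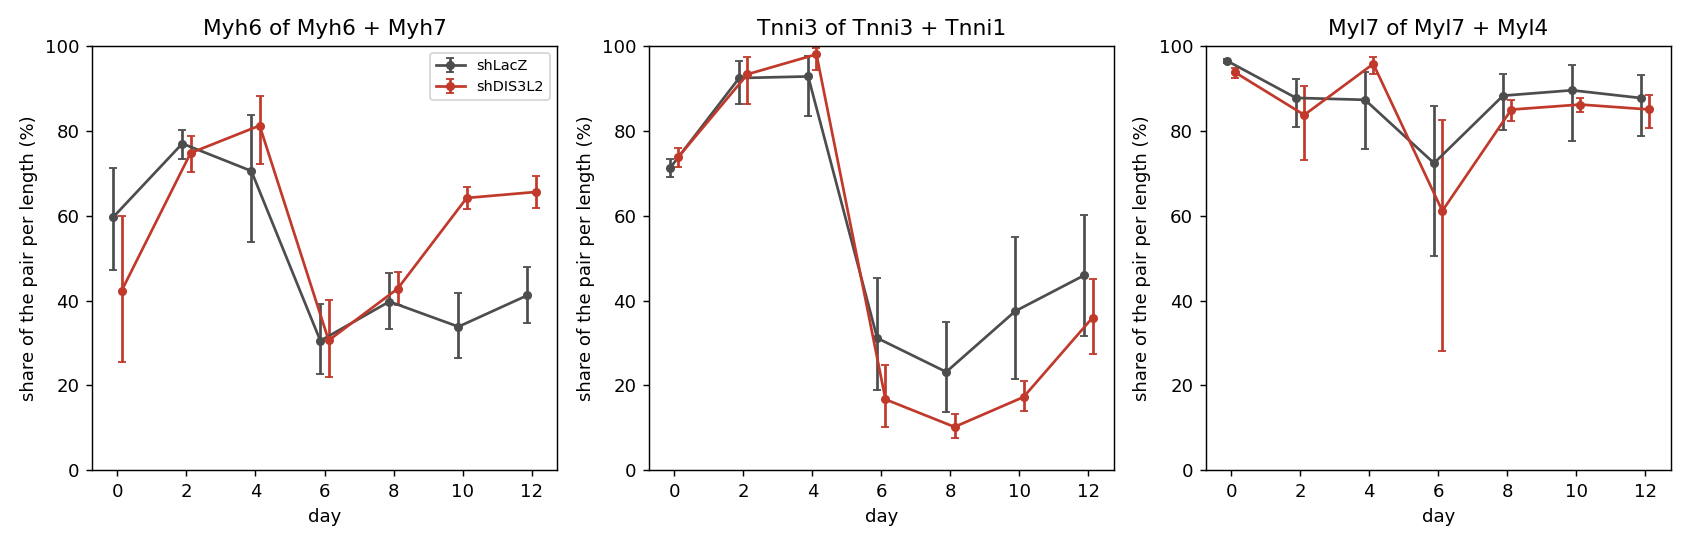
Share of the first-named gene in the summed per-length level of a pair of related genes (vertical axis, %) by day in shLacZ (grey) and shDIS3L2 (red), with bars for the exact 95% interval of the reads and points of the lines set slightly apart. The Myh6 share of the lines parts at d10 and d12, at 64.2% and 65.6% in shDIS3L2 against 33.8% and 41.2% in shLacZ, while the Tnni3 share falls after d4 in both lines.

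Across the 14 libraries the 10 genes did not move as a block. Pearson's r of log2(CPM + 1) had a median of 0.21 over the 45 pairs and ran from -0.73 (Tnni1 and Actn2) to 0.90 (Tnnt2 and Myl4). Tnnt2 and Tnni1 had an r of 0.89 and Myl4 and Myl7 of 0.83, while Myh7 and Tnni3 had an r of -0.68. The points are days of 2 series and share each library's depth, so r is a description.

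Sequences upstream of the genes were set beside these patterns for 3 genes that were at least 3-fold higher on each of d8, d10 and d12 and for Ttn, which was not on any. Each is bases -200 to -21 before the annotated start, 5′ to 3′ on the gene's strand, from RefSeq's GRCm38.p6 annotation, with motif matches in capitals. The RefSeq start of Actc1 differs from that of GENCODE, and its window lies inside the gene positions given above. The window of Myl4 overlaps an exon of the neighbouring gene Cdc27 and is not shown.
Actc1 (chr2:114052896-114053075, minus strand): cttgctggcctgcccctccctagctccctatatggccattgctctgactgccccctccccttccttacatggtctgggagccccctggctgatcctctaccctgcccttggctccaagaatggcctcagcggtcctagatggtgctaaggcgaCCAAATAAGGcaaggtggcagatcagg
Myl7 (chr11:5898803-5898982, minus strand): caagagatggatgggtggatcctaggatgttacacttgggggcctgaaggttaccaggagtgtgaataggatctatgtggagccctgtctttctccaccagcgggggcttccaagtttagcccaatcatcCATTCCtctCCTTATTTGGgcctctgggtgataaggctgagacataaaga
Tnnt2 (chr1:135836134-135836313, plus strand): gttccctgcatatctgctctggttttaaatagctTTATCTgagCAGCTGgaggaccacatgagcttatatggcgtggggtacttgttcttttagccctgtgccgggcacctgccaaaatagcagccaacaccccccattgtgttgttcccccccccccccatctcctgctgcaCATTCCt
Ttn (chr2:76982568-76982747, minus strand): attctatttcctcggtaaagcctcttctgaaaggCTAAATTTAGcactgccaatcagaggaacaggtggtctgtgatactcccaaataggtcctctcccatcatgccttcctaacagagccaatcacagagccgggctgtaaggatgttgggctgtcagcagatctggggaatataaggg

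The windows of all 10 genes, 250 bases before to 50 after the RefSeq start, were searched on both strands for 7 motifs known from muscle promoters. Those of Tnni1 and Tnni3, like that of Actc1, lie inside the gene positions given above. The CArG box, which serum response factor binds, was in the windows of Actc1 (bases -47 to -38) and Myl7 (-61 to -52), shown in capitals above, and in 1.57% of 27018 promoters of the same length. CATTCC, the M-CAT core that TEAD factors bind, was in 5 of 10, those of Myh6, Myh7, Tnnt2, Myl7 and Ttn, and in 14.6% of all promoters. The MEF2 motif was in that of Ttn (-166 to -157) and in 0.566% of all. The GATA factor motif, searched as AGATAA, was in that of Tnnt2, read as TTATCT on the strand shown, and in 11.4% of all, and CAGCTG, an E-box, in those of Tnnt2 and Tnni1 and in 16.1% of all. An NKX factor motif was in that of Myh7 (11.5% of all). TATAAA was in those of Myh6 (bases 2 to 7) and Actc1 (bases 34 to 39), past the annotated start, and in 14.2% of all. A match of letters is a description of the window, not a site of binding. The window of Myl4 held 25 CpG and that of Actn2 19, while the other 8 held 2 to 8, and the median of all promoters was 7.

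The markers of a cardiomyocyte outside the 10 genes did not all accompany them. Nkx2-5, a cardiac transcription factor, was at most 0.754 CPM in any library, and Nppa, the atrial natriuretic peptide precursor, at most 0.616 CPM, with no read in 9 of the 14 libraries. Ryr2, the cardiac calcium release channel, reached 33.5 CPM in shLacZ d12 and 25.9 CPM in shDIS3L2 d12, and by edgeR it did not pass over d6 to d12 (log2 difference 0.25, SE 0.19, adjusted p = 0.319). The name cardiac sarcomere is thus that of the genes and is not taken here as a name for the cells that carry them. The skeletal muscle factors Myod1, Myog and Myf6 were at most 0.417 CPM in any library, and the 3 had no read in shDIS3L2 at d8, d10 and d12. The 6 skeletal muscle markers, among them these 3, Mylpf and Tnnt3, were not all absent. Their sum at d8, d10 and d12 was 13.6, 14.2 and 14.7 CPM in shDIS3L2 and 14.2, 9.93 and 13.2 CPM in shLacZ. By edgeR Tnnt3 was higher in shDIS3L2 (log2 difference 1.33, SE 0.18, adjusted p = 0.00225), and Mylpf did not pass (-0.84, SE 0.42, adjusted p = 0.159).

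Of the 8 other lists, that of smooth muscle genes had the highest median ratio at d8, d10 and d12. Of the 11 listed, 10 could be compared on at least 2 of d8, d10 and d12, and 7 were at least 3-fold higher in shDIS3L2 and none lower. By edgeR over d6 to d12, 10 of 10 tested were higher. For this list and those that follow, the share of all genes was 6.91% higher and 1.9% lower by the 3-fold criterion, and 19.6% higher and 18.7% lower by edgeR. The summed level of 5 smooth muscle markers (Acta2, Tagln, Myh11, Cnn1, Smtn) was 121.9 to 193.9 CPM in shLacZ d6 to d12 and 524.6 to 2172 CPM in shDIS3L2, and no marker was at 0 in shDIS3L2 on these days. Acta2, smooth muscle actin, was 13.5-fold higher at d8 (12.9 to 14.1) and Tagln, transgelin, 13.5-fold (12.1 to 15.1). Actg2, the enteric smooth muscle actin, was at 61.6 CPM against 0.968 CPM at d10, 63.6-fold higher (32.2 to 147.7), and Smtn, smoothelin, was 1.25-fold higher (1.11 to 1.41). Their part in the differences of the 10 genes was not tested.

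Of 35 other sarcomere genes of striated muscle, 24 could be compared on at least 2 of the 3 days, with 9 higher by 3-fold or more (Myl2, Myom1, Csrp3, Nebl, Tmod1, Nexn, Trim63, Trim55 and Smyd1) and none lower. By edgeR 12 of 24 were higher and 2 lower. Tmod1, tropomodulin, which caps thin filaments, was at 48.5 CPM in shDIS3L2 d8 against 4.85 CPM in shLacZ d8 (9.99-fold, 7.97 to 12.7). Tpm1, alpha-tropomyosin, was at 745.3 against 276.3 CPM on that day (2.7-fold, 2.61 to 2.79). Mybpc3, cardiac myosin binding protein C, went the other way without passing by edgeR, with 51.6 against 63.9 CPM at d10 (0.807, 0.727 to 0.897; log2 difference -0.74, SE 0.37, adjusted p = 0.152), and Pdlim5, a Z disc protein, had a ratio of 0.983 (0.896 to 1.08). Of 22 fast and embryonic skeletal muscle genes, 7 could be compared and 1 (Tnni2) was higher and none lower, and by edgeR 2 of 7 were higher. In this list Mylpf, fast skeletal light chain, was highest at d0 with 119.5 CPM (shLacZ) and 136.7 CPM (shDIS3L2), another light chain with its maximum in undifferentiated cells, Neb reached 35.2 CPM at d2, and Tnnt3 and Tnnt1, fast and slow skeletal troponin T, had ratios of 2.26 (1.45 to 3.69) and 1.53 (0.748 to 3.43) at d10.

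Among 26 cardiac transcription factors, 22 could be compared and 8 were higher by 3-fold or more (Isl1, Gata5, Tbx2, Tbx5, Tbx20, Hand2, Myocd and Zfpm2), with none lower, while edgeR had 10 of 23 higher and 4 lower. Tbx20, needed for heart growth, was at 107.6 against 23.7 CPM at d10 (4.53-fold, 3.92 to 5.27). Gata4, a regulator of heart and endoderm, was lower in shDIS3L2, with 190.0 against 351.2 CPM at d10 (0.541, 0.516 to 0.568) and by edgeR a log2 difference of -0.90 (SE 0.06, adjusted p = 0.00036). Hand1 had a ratio of 2.99 at d8 (2.78 to 3.23) and 0.363 at d12 (0.313 to 0.42), and Tbx3 of 0.484 at d10 (0.441 to 0.532).

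Of 21 genes of cardiac calcium handling and excitation, 18 could be compared, 7 were at least 3-fold higher (among them Jph2, Slc8a1, Cacna1g, Gja5, Popdc2 and Bves) and 1 lower (Kcnj3), and edgeR had 11 of 18 higher and 3 lower. Cacna1g, a T-type calcium channel, was 4.83-fold higher at d10 (3.69 to 6.45). Atp2a2, the SERCA2 pump, was at 245.9 against 277.9 CPM at d10 (0.885, 0.842 to 0.93). Gjc1, connexin 45, was 2.15-fold higher (1.84 to 2.52), and Gja1, connexin 43, had a ratio of 0.801 (0.762 to 0.841). Of 13 genes of cardiac hormones and energy metabolism, 6 could be compared and 1, Hspb7, a heart and muscle chaperone, was higher (15.9-fold at d10, 8.0 to 37.2). In that list edgeR had 1 of 6 higher and 2 lower, among them Fabp3, the heart fatty acid binding protein, at 160.5 against 414.6 CPM at d10 (0.387, 0.369 to 0.406). Cryab, a small heat shock protein, had a ratio of 0.882 (0.786 to 0.991) and Cox7a1, a cytochrome oxidase subunit of muscle, of 0.656 (0.422 to 1.04). Cox7a1 was the other gene lower by edgeR over d6 to d12 (log2 difference -0.62, SE 0.19, adjusted p = 0.0394).

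Of 10 endothelial genes, all compared, 1 was at least 3-fold higher, Kdr, the VEGF receptor (6.91-fold at d10, 6.03 to 7.96), and none lower, and edgeR had 2 higher and 2 lower, shares near those of all genes. Cdh5 (0.546, 0.467 to 0.638) and Sox17 (0.408, 0.369 to 0.452) were below 1 at d10, and Pecam1 was above it (1.53, 1.22 to 1.93). Of 9 pericardial, epicardial and mesothelial genes, 8 could be compared and 4 were higher by 3-fold or more (Wt1, Tcf21, Upk1b and Aldh1a2) and none lower, and edgeR had 5 of 8 higher and none lower. Aldh1a2, which makes retinoic acid in the epicardium and elsewhere, was 13.98-fold higher at d10 (8.77 to 23.7), Bnc1 5.31-fold (3.99 to 7.2), Krt19 had a ratio of 0.906 (0.82 to 1.0) and Lrrn4 of 0.461 (0.362 to 0.588). The median log2 ratio at d10 was 2.43 for the smooth muscle genes, 2.17 for the pericardial, epicardial and mesothelial genes, 1.91 for calcium handling, 1.07 for the other sarcomere genes, 0.97 for the transcription factors, 0.16 for the skeletal muscle genes, -0.22 for hormones and metabolism and -0.30 for the endothelial genes.

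**Figure D5:**
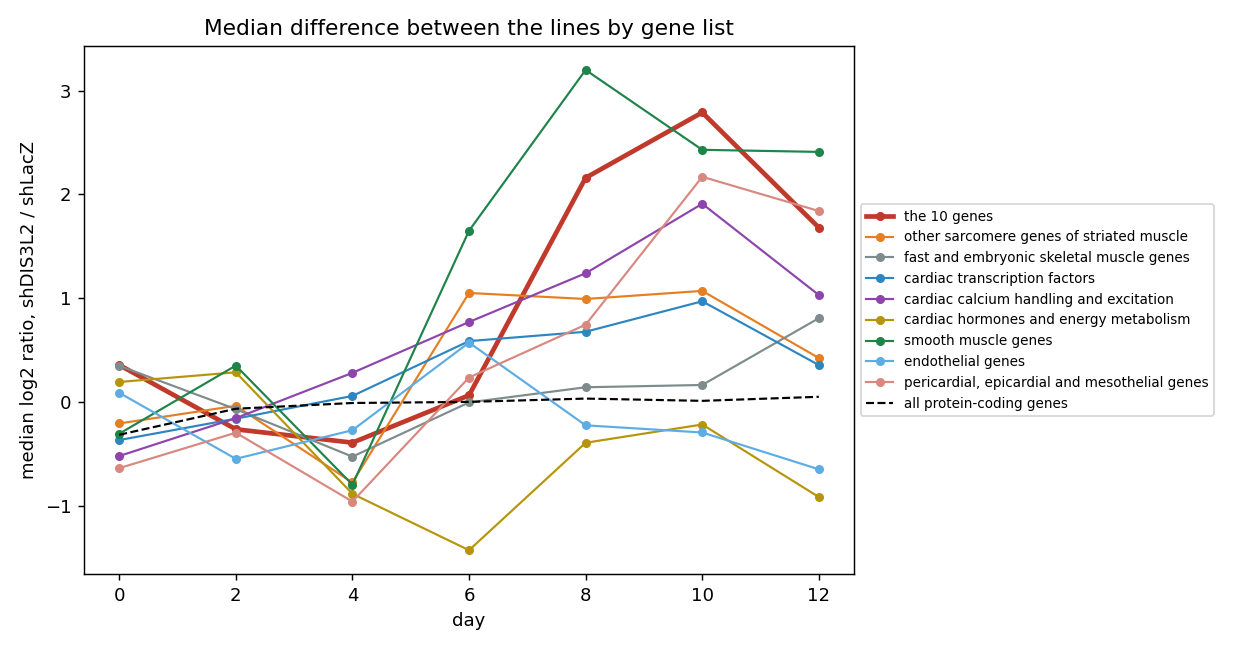
Median log2 ratio of shDIS3L2 to shLacZ (vertical axis) by day (horizontal axis) for the 10 genes (thick red), the 8 other lists and all protein-coding genes (dashed), over the genes of each list that could be compared on the day, with no error bars. The smooth muscle list is at 3.2 at d8, the 10 genes at 2.16, and the dashed line stays near 0 after d0.

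The genes whose levels followed the mean of the 10 most closely were ranked by Pearson's r of log2(CPM + 1) over the 14 libraries, among the 12844 protein-coding genes that reached 5 CPM somewhere. First came Myl2, the ventricular regulatory light chain, with r = 0.961, followed by Angptl1 (0.961), Prkcdbp (0.953), Tmem106c (0.945), Hspb7 (0.944), Lmcd1 (0.942), Pcp4l1 (0.942), Igfbp7 (0.941), Brinp3 (0.941), Adamtsl1 (0.941), Ncam1 (0.94), Ntrk3 (0.939), Cpxm1 (0.932), Pnoc (0.931) and Ddr2 (0.928). Of these 15, 13 had their highest level in shDIS3L2 d10, the exceptions being Ntrk3 (d8) and Ddr2 (d12). The summed level of the 10 genes was highest in that library too, so a shared maximum follows from the ranking and is no separate result. Myl2 itself was counted at 1.15, 0.644, 0.557, 0.0752, 0.118, 0 and 2.08 CPM in shLacZ and at 1.1, 0.42, 0.193, 0.188, 5.75, 15.8 and 3.56 CPM in shDIS3L2. It is a marker of ventricular cardiomyocytes and slow muscle, and by edgeR its log2 difference was 3.40 (SE 0.99, adjusted p = 0.0325). In shLacZ it was above its floor at d12 and not detectable at d10.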

How the data were processed

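Per the study, PolyA+ RNA was sequenced on an Illumina platform, and the submitters' processing notes name FastQC, Subread, featureCounts, limma and the build GRCm38. The authors deposited whole read counts per gene without normalization, and a table of CPM for protein-coding genes, which equals the count plus 0.25 per 1000000 over the listed genes. The columns headed shm5 were taken as shDIS3L2, since the study's copy of the CPM table heads the same values so. Whether counting used strand is not given in the sources used here.

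CPM was recomputed with library totals over all genes. Ratios, the criterion of 3-fold at 1 CPM, the floor of 3 counts and the exact 95% intervals cover counting error only, as PCR copies of a molecule cannot be told apart here. The line difference over d6 to d12 was tested with edgeR 4.0.16 in R 4.3.3 (TMM, filterByExpr, day as a block). The SE of an edgeR log2 difference was taken as its absolute value over the square root of the F statistic. DESeq2 1.42.0 was an alternative. Fits and ratios were tested on simulated data. Python 3.11.15 with pandas 2.3.3, scipy 1.17.1 and numpy 2.4.6 gave the other values, and matplotlib 3.10.9 the plots. Gene positions came from GENCODE M21 and exon lengths from the deposited count table. Symbols came from the deposited CPM table and, for genes not in it, from GENCODE M21, and symbols matched 50421 of 50686 genes.

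The 10 genes and the lists were chosen with earlier results of these data known. The genes named are the 10, in each other list the 4 genes with the highest CPM in any library, the 15 most alike, Dis3l2, and the genes called in a list, except that some items are not reported here. Neb and the markers of cell types were named besides.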

Additional observations from a re-analysis of the deposited data

Results flagged for a closer look

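For 5 of the 10 genes the libraries of different days put the lines in opposite order, by ratios whose counting intervals excluded 1 on both sides with library totals. The ratio of shDIS3L2 to shLacZ was 0.833 at d2 and 6.2 at d10 for Myh6, 0.694 at d0 and 10.9 at d10 for Myl7, 0.728 at d4 and 19.99 at d8 for Actc1, and 0.394 at d4 and 2.72 at d10 for Ttn. For Actn2 it was 1.8 at d0 and 0.434 at d6. With another scaling 2 of the low ratios no longer excluded 1: that of Myl7 at d0 was 0.913 with DESeq2 size factors (0.794 to 1.05) and that of Myh6 at d2 0.862 with TMM factors (0.732 to 1.01). Between days, the lines also moved oppositely with library totals. Actc1 at d8 was 0.056 of its d4 level in shLacZ and 1.54 times in shDIS3L2, and at d12 it was 3.0 times its d8 level in shLacZ and 0.851 of it in shDIS3L2. Ttn at d8 was 0.716 of its d4 level in shLacZ (0.531 to 0.97) and 1.95 times in shDIS3L2 (1.49 to 2.58). The upper bound in shLacZ lies close to 1. The TMM factors of these shLacZ libraries, 1.09 at d4 and 1.02 at d8, would raise that ratio and its bounds. The difference between days or lines was not tested in any of these cases, since each value is 1 library against 1.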

How the results depend on the processing

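With a fold of at least 2 in place of 3, 8 of the 10 genes were higher at d8 and 1 was lower at d4 and 1 at d6. Without a minimum CPM 1 was lower at d4. With TMM factors, and with DESeq2 size factors, 0 of the 10 were higher from d8 to d12 in shLacZ. With a fold of 2, the lists had 2 other sarcomere genes lower, 2 skeletal genes higher, 12 calcium handling genes higher and 2 lower, 2 hormone and metabolism genes lower, 2 endothelial genes higher and 1 lower, and 1 mesothelial gene lower. Without a minimum CPM 2 hormone and metabolism genes were higher.

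In the edgeR fit, 4 of the 10 genes were higher without the day block, and 3 to 8 when both libraries of 1 day were left out, with 3 without d8 and 3 without d10. Over all genes there were 3365 higher and 3209 lower, 1896 and 1445 without the day block, and 1695 to 3441 and 1641 to 3237 when a day was left out, the lowest without d10. Without d8 there were 1784 and 1665. Without d8 and d10, a choice made after seeing the data, 0 genes were higher and 0 lower of 15950 by edgeR, with 3149 at an unadjusted p under 0.05, and 396 higher and 315 lower by DESeq2. The log2 difference of Actn2, slightly below 0, was 0.00413 with library totals, 0.00994 without a filter, 0.105 without the block, 0.323 without d6, 0.0614 without d12 and, at its lowest without a single day, -0.273 without d10. That of Ttn was between -0.00776, without d10, and 0.603, without d6, when a day was left out, and without d8 and d10 it was -0.112 by edgeR and -0.182 by DESeq2. The cause of these shifts was not tested.

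Single ratios rest on as few as 3 reads (Tnnt2 in shLacZ d2, Tnni1 in shDIS3L2 d4), and the days are not biological replicates. The day block pairs the lines within each day, and no pairing by replicate number exists with 1 library per line and day. With DESeq2 in place of edgeR, 8 of the 10 genes were again higher.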
